A study of Mus musculus with 9 samples.

Results

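The BCL2 family apoptosis regulators described here are 9 of the 56691 genes in the deposited tables. They are the 3 anti-apoptotic genes Bcl2, Bcl2l1 and Mcl1, and 6 pro-apoptotic genes: the pore-forming effectors Bak1 and Bok, and the BH3-only genes Bid, Bad, Bcl2l11 and Pmaip1. They were chosen by gene symbol and family role, with no measured value in the rule, though earlier results of these data were known. Each of the 9 passed the filter on low counts that left 16903 genes for testing. RNA-seq libraries were made from cells of 1 mouse pluripotent stem cell (PSC) line, BVSC, in which Blimp1-mVenus (BV) and Stella-CFP mark cells entering the germ line. The PSCs were grown into embryoid bodies (EBs) in serum-containing medium and separated by flow cytometry into BV+ and BV- cells. The study names these primordial germ cell-like cells (PGCLCs) and somatic cells, and their marker levels are given below. The cells carried the p20 vector, induced by doxycycline (DOX), either with Nrf1 cDNA (NRF1 overexpression, NRF1 OE) or empty (Ctrl). All 4 groups received DOX at 1.5 μg/mL from day 2 to day 5, so that Ctrl cells shared the reporters, the vector backbone and the DOX. There were 2 libraries of BV+ cells with NRF1 OE, 2 of BV+ cells with Ctrl, 3 of BV- cells with NRF1 OE and 2 of BV- cells with Ctrl. The replicates are described as biological, but no label ties a library to a culture or sort, so the p-values below measure the spread between these libraries.

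The BCL2 family governs the mitochondrial route to apoptosis. Anti-apoptotic members hold the effectors in check at the outer mitochondrial membrane, BH3-only members carry stress signals by binding the anti-apoptotic members or activating the effectors, and activated effectors open pores that let cytochrome c escape and start caspase activation. In the germ line, PGCs that stray from their path or lack survival signals are known to die by this route. NRF1 is a transcription factor of nuclear genes for mitochondria, and the comparisons below ask how the RNA of these 9 genes differed with NRF1 OE and between BV+ and BV- cells.

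Total counts per library ranged from 13702162 to 19625460. Nrf1 itself, whose cDNA was in the OE vector, measured 95.7 to 99.4 CPM (counts scaled to a common library size) in BV+ cells with NRF1 OE against 90.4 to 91.1 with Ctrl, a log2 fold change of 0.10 ± 0.104 (SE) with an edgeR adjusted p of 0.489 from the quasi-likelihood test. In BV- cells Nrf1 measured 119 to 126 CPM with NRF1 OE against 99.1 to 105 with Ctrl, a log2 fold change of 0.26 ± 0.0951 (SE, edgeR adjusted p = 0.0718). Nrf1 thus did not pass the test in either population. The summed level of 7 germ cell markers was 350 to 366 CPM in the 4 BV+ libraries and 373 to 515 CPM in the 5 BV- libraries. The BV+ label was thus not matched by a higher sum of germ cell markers. Prdm1, which encodes BLIMP1, averaged 60.1 CPM in BV+ and 58 CPM in BV- cells with Ctrl. The summed level of 4 mesenchyme and fibroblast markers was 124 to 685 CPM in BV+ libraries and 12.3 to 22.1 CPM in BV- libraries. Twist1, 1 of these 4, was lower in BV+ cells with Ctrl, at 2.1 to 2.16 CPM against 2.35 to 2.96 CPM. For 5 naive pluripotency markers the summed level was 977 to 1320 CPM in BV+ and 1230 to 1320 CPM in BV- libraries, so these were not lost in cells named somatic. GC content also moved with NRF1 OE. Spearman's rho between a gene's transcript GC content and its deviation from its mean over the libraries, across 14253 genes, lay between -0.561 and -0.467 in the 4 Ctrl libraries and between 0.00674 and 0.666 in the 5 NRF1 OE libraries. Genes are not independent replicates, and these values describe the libraries. The members are therefore also given with offsets, which remove from every library how its counts followed transcript GC content and length. Since the trend differed between NRF1 OE and Ctrl libraries, the offsets also remove any NRF1 OE effect that follows GC content or length. Such an effect and a trend from library preparation cannot be told apart here.

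As background, NRF1 binds GC-rich promoter elements, a palindrome with GCATGC at its centre and TGCGCA as a shorter core. RefSeq promoter windows on GRCm38.p6 were used for 8 of the 9 genes, 12 windows in all. The 250 bases before each start were searched on both strands. The gene without a window was Pmaip1. The choice of member windows left out the 1 chromosome that carries Pmaip1, so no window of this gene was searched. The windows over all genes kept that chromosome. TGCGCA and GCATGC, which can overlap by their ends, occurred in none of the 12. They were present in 6.43% and 6.7% of 32851 windows of the same length. The absence says only that these letters are not in these windows. CpG dinucleotides did differ among the genes, with a median of 6 per window over all windows and quartiles of 2 and 16. The windows of the effectors Bok and Bak1, whose RNA was higher in NRF1 OE libraries, and of Mcl1 and Bcl2, the most and the least abundant of the 9, are shown, with 12, 8, 26 and 36 CpGs, all above the median over all windows. The 12 windows themselves held 0 to 36, and the one with 0 is 1 of the 3 windows of Bcl2l1. They were chosen after the values were seen, and capitals mark each CG.
Bok promoter, chr1:93685325-93685574, plus strand: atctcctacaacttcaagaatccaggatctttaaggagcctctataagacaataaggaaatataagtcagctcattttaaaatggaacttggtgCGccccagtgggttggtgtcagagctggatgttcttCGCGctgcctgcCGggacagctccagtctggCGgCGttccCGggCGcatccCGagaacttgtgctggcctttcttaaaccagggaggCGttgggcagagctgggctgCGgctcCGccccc
Bak1 promoter, chr17:27028628-27028877, minus strand: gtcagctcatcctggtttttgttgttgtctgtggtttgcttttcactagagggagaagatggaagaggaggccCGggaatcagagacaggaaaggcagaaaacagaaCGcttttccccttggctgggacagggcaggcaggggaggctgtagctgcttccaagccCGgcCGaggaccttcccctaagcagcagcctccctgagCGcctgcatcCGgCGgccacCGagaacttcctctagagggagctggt
Mcl1 promoter, chr3:95658471-95658720, plus strand: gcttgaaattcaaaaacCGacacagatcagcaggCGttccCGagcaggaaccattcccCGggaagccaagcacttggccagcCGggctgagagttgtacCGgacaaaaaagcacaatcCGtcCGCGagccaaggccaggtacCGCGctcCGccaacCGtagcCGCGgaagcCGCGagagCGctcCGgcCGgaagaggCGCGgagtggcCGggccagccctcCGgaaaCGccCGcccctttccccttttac
Bcl2 promoter, chr1:106714291-106714540, minus strand: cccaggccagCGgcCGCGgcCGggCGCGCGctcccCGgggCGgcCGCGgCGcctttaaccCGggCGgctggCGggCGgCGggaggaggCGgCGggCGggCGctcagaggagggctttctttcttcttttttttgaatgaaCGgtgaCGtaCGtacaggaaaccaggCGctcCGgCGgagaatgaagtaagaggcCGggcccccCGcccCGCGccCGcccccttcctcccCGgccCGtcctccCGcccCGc
GC content was 55.2% for Bok, 58.4% for Bak1, 64.4% for Mcl1 and 74.8% for Bcl2, against a median of 52.4% over all windows.

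Between genes, levels are compared in FPKM, which divides the fragments of a gene by its length. Mcl1 was the most abundant of the 9 in each library, with a level of 73.19 to 89.19 FPKM. Bak1 followed at 23.25 to 41.33 FPKM and Bid at 20.42 to 27.84 FPKM. Bok (8.81 to 22.89 FPKM), Pmaip1 (4.49 to 20.23 FPKM), Bcl2l1 (7.42 to 12.25 FPKM), Bcl2l11 (5.44 to 6.37 FPKM) and Bad (2.48 to 5.28 FPKM) lay lower. Bcl2 was lowest by far at 0.12 to 0.45 FPKM, from 15 to 81 counts per library. Over the 4 groups, the means of Pmaip1 spanned 1.82 on the log2 CPM scale, those of Bcl2 1.38, of Bok 1.18 and of Bcl2l11 0.07. Pmaip1 thus varied most and Bcl2l11 least. In the GENCODE annotation on GRCm38, exons of Bad, Bak1, Bcl2 and Bid overlap those of Gpr137, Ggnbp1, D630008O14Rik and Bcl2l13 on the opposite strand. The library protocol in the labels names no step that marks strand, so reads of these 4 genes and their partners cannot be told apart there.

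**Figure D1:**
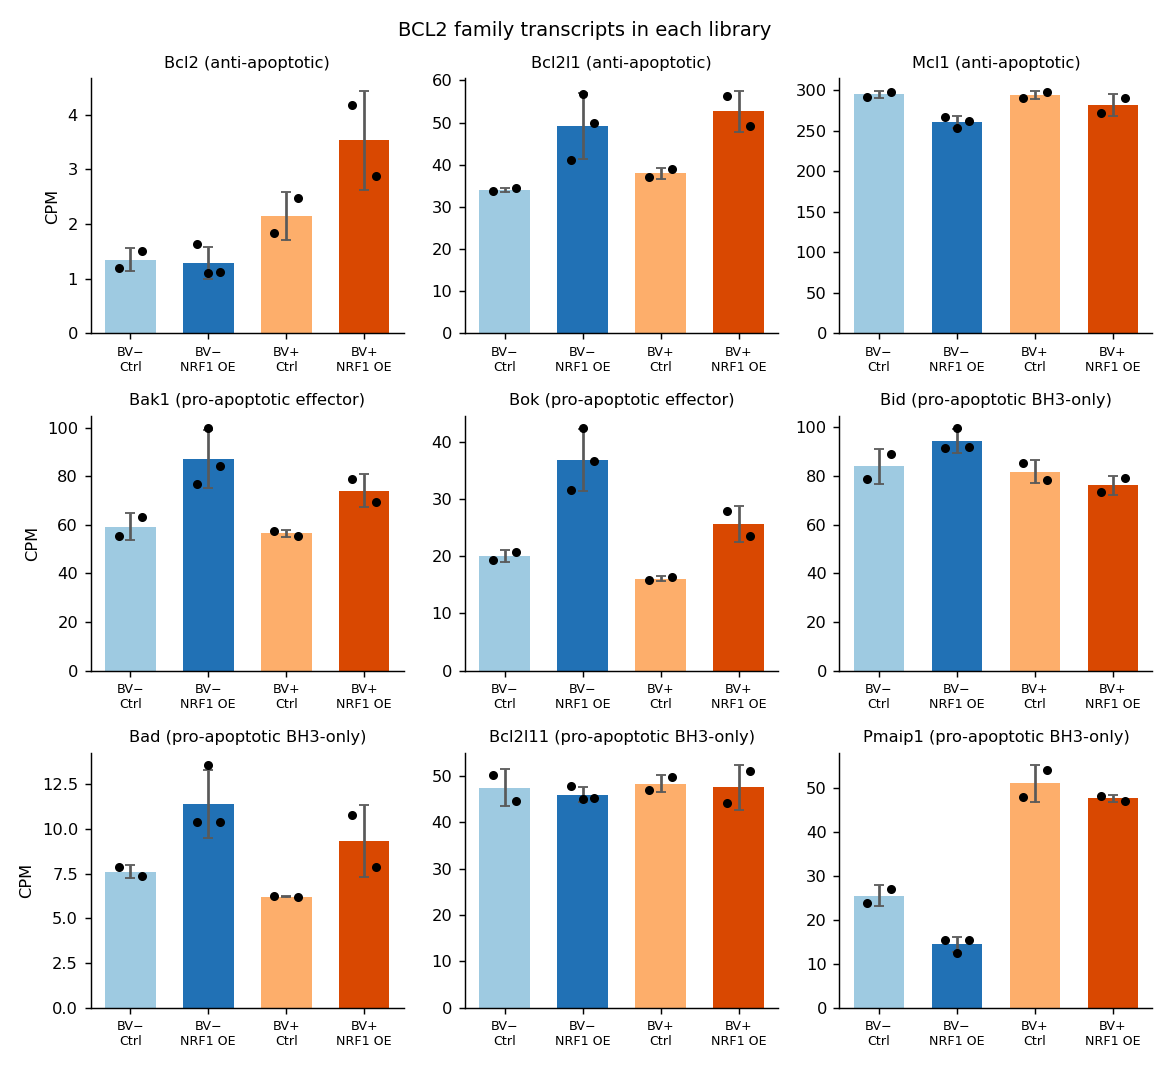
Level of each of the 9 genes in CPM (vertical axes, each from 0) in the 4 groups; points are libraries, bars are group means and whiskers are ± SD. Bok lay at 31.6 to 42.5 CPM in BV- cells with NRF1 OE against 19.3 and 20.7 CPM with Ctrl, while Pmaip1 was highest in BV+ cells.

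With NRF1 OE, the effectors and Bcl2l1 were higher and Pmaip1 was lower in BV- cells, and in BV+ cells the same test called Bok alone. These calls do not compare the populations, and the test of that difference, given below, passed for none of the 9 genes. In BV- cells 4 of the 9 genes passed an adjusted p under 0.05 in edgeR: Bcl2l1, Bak1 and Bok rose and Pmaip1 fell. Over all genes tested, 17.2% passed there, with 10.2% higher and 6.98% lower. In BV+ cells 1 of 9 passed, beside 8.02% of all genes, with 6.24% higher and 1.78% lower. Before adjustment, 5 of 9 had a p under 0.05 in BV+ cells, beside 32.5% of all genes, and 5 of 9 in BV- cells, beside 39.1%. DESeq2 called 1 of 9 in BV+ cells, beside 12.6%. The study itself used a looser threshold, with absolute log2 fold changes beyond 0.58 at a raw p of under 0.05. By it, 3 of 9 passed in BV+ cells (Bcl2, Bok and Bad, beside 17% of all genes) and 3 of 9 in BV- cells (Bok, Bad and Pmaip1, beside 16%). Groups without overlap in CPM were common in these libraries. In BV+ cells they were seen for 5 of 9 genes, each higher with NRF1 OE, beside 70.1% of all genes (38.1% higher and 32% lower). In BV- cells they were seen for 7 of 9 genes, with 5 higher and 2 lower, beside 57% of all genes (29.4% higher and 27.6% lower). The median log2 fold change of the 9 genes was 0.39 in BV+ cells and 0.17 in BV- cells, where the medians of all genes were 0.04 and 0.01. With GC and length offsets the members' medians were 0.15 and 0.20, and those of all genes were -0.01 and 0.03, so the order of the populations turned. By role, 0 of 3 anti-apoptotic and 1 of 6 pro-apoptotic genes rose in BV+ cells, and in BV- cells 1 of 3 anti-apoptotic genes rose while 2 of 6 pro-apoptotic genes rose and 1 fell. In these bulk libraries, fewer cells that express a gene and less of its RNA per cell cannot be told apart. In BV+ cells, marker levels also differed with NRF1 OE. The mesenchyme and fibroblast markers summed to 685 and 444 CPM against 124 and 129 CPM with Ctrl, and 3 neuroectoderm markers to 161 and 111 CPM against 65.9 and 72.7 CPM. Col1a2 (602 and 368 CPM) and Nes (105 and 59.3 CPM) made up most of these sums. Twist1 did not pass (edgeR adjusted p = 0.434), and Pax6 was lower, at 11.3 and 11.6 CPM against 12 and 14.2 CPM. The naive pluripotency markers summed to less, 977 and 1160 CPM against 1320 and 1290 CPM. Klf4 and Zfp42 passed as lower (edgeR adjusted p = 0.0472 and 0.0404), and Tfcp2l1 was lower but did not pass (0.0849). Nanog overlapped, and Esrrb was not lower, at 368 to 376 CPM against 356 to 369 CPM. Of the germ cell markers only Dppa3 passed, at 86.3 to 96.6 CPM against 56.7 to 60.3 CPM (log2 fold change 0.65, edgeR adjusted p = 0.0252). Kit was lower, at 118 to 136 CPM against 147 to 151 CPM, and did not pass (edgeR adjusted p = 0.218). The part of these marker differences in the BV+ values below was not tested.

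Of the anti-apoptotic genes, Bcl2l1 (ENSMUSG00000007659) encodes BCL-XL, which restrains BAK and BAX at mitochondria. In BV- cells it measured 41.1, 56.7 and 49.9 CPM with NRF1 OE against 33.7 and 34.4 CPM with Ctrl. The BV+ libraries had 56.2 and 49.2 CPM with NRF1 OE against 37.1 and 38.9 CPM with Ctrl. Each NRF1 OE library was above each Ctrl library of its population. The log2 fold change was 0.53 ± 0.142 (SE) in BV- cells with an edgeR adjusted p of 0.0371, and 0.47 ± 0.153 in BV+ cells with an edgeR adjusted p of 0.0730. With GC and length offsets it was 0.21 and 0.17, with edgeR adjusted p of 0.147 and 0.244, so the BV- call was lost.

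Mcl1 (ENSMUSG00000038612) encodes a short-lived anti-apoptotic protein that many proliferating cells require. It measured 267, 253 and 262 CPM in BV- cells with NRF1 OE against 292 and 298 CPM with Ctrl. The BV+ libraries had 272 and 291 CPM with NRF1 OE against 291 and 298 CPM with Ctrl. The BV- groups did not overlap, with the NRF1 OE libraries lower, but the log2 fold change of -0.18 ± 0.0885 (SE) did not pass the edgeR test (adjusted p = 0.157), nor did -0.06 ± 0.0972 in BV+ cells (adjusted p = 0.672). With offsets Mcl1 had -0.11 and -0.02 (edgeR adjusted p = 0.318 and 0.856). Bcl2 (ENSMUSG00000057329), the founding member of the family, measured 4.17 and 2.88 CPM in BV+ cells with NRF1 OE against 1.83 and 2.47 CPM with Ctrl. The BV- libraries had 1.63, 1.11 and 1.13 CPM with NRF1 OE against 1.2 and 1.5 CPM with Ctrl. The BV+ groups were apart and the BV- groups overlapped. The log2 fold change was 0.71 ± 0.310 (SE) in BV+ cells and -0.07 ± 0.336 in BV- cells, neither of which passed (edgeR adjusted p = 0.142 and 0.900). With offsets Bcl2 had 0.88 and 0.27 (edgeR adjusted p = 0.0753 and 0.651). Its SE was the largest of the 9 genes.

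Among the effectors, Bok (ENSMUSG00000026278) encodes a pore former that is kept low by protein turnover and can act without BAK and BAX. It measured 31.6, 42.5 and 36.6 CPM in BV- cells with NRF1 OE against 19.3 and 20.7 CPM with Ctrl. The BV+ libraries had 27.9 and 23.5 CPM with NRF1 OE against 15.9 and 16.4 CPM with Ctrl. In both populations the NRF1 OE libraries were all above the Ctrl libraries. Bok rose by a log2 fold change of 0.88 ± 0.150 (SE) in BV- cells, 1.84-fold, with an edgeR adjusted p of 0.0317. It rose by 0.67 ± 0.163 in BV+ cells, 1.59-fold, with an edgeR adjusted p of 0.0367. With GC and length offsets the BV- change was 0.46 (edgeR adjusted p = 0.0199) and the BV+ change was 0.23 and no longer passed (edgeR adjusted p = 0.147).

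Bak1 (ENSMUSG00000057789) encodes BAK, which sits in the outer mitochondrial membrane of living cells. It measured 77, 100 and 84.2 CPM in BV- cells with NRF1 OE against 55.5 and 63.2 CPM with Ctrl. In BV+ cells it measured 78.9 and 69.3 CPM with NRF1 OE against 57.5 and 55.4 CPM with Ctrl. The groups were again apart in both populations. Bak1 rose by a log2 fold change of 0.55 ± 0.134 (SE) in BV- cells (edgeR adjusted p = 0.0327), and the 0.39 ± 0.145 in BV+ cells did not pass (edgeR adjusted p = 0.0977). With offsets the values were 0.20 and 0.05, and neither passed (edgeR adjusted p = 0.117 and 0.744).

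Of the BH3-only genes, Pmaip1 (ENSMUSG00000024521) encodes NOXA, which binds MCL1 and is a transcriptional target of p53. It measured 15.4, 12.4 and 15.5 CPM in BV- cells with NRF1 OE against 23.8 and 27.1 CPM with Ctrl. In BV+ cells it measured 48.2 and 47 CPM with NRF1 OE against 48 and 54 CPM with Ctrl. In BV- cells each NRF1 OE library lay below each Ctrl library, and in BV+ cells the groups overlapped. The log2 fold change was -0.82 ± 0.136 (SE) in BV- cells (0.567-fold, edgeR adjusted p = 0.0317) and -0.10 ± 0.142 in BV+ cells (edgeR adjusted p = 0.643). With offsets it was -0.45 in BV- cells, which passed (edgeR adjusted p = 0.0353), and 0.15 in BV+ cells, which did not (edgeR adjusted p = 0.389) and had the opposite sign.

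The other BH3-only genes did not pass in either population. Bad (ENSMUSG00000024959), whose protein links growth factor signalling to BCL-XL, measured 10.4, 13.6 and 10.4 CPM in BV- cells with NRF1 OE against 7.88 and 7.37 CPM with Ctrl. In BV+ cells Bad measured 10.8 and 7.89 CPM with NRF1 OE against 6.23 and 6.19 CPM with Ctrl. The Bad groups were apart in both, with log2 fold changes of 0.58 ± 0.190 and 0.59 ± 0.209 (SE) and edgeR adjusted p of 0.0529 and 0.0894. With offsets Bad had 0.21 in BV- and 0.23 in BV+ cells (edgeR adjusted p = 0.368 and 0.343). DESeq2 put Bad in BV- cells at an adjusted p of 0.0399. Bid (ENSMUSG00000004446), which couples death receptors to mitochondria after cleavage by caspase-8, measured 91.3, 99.8 and 91.7 CPM in BV- cells with NRF1 OE against 78.9 and 89 CPM with Ctrl. In BV+ cells Bid measured 73.3 and 79 CPM with NRF1 OE against 85.1 and 78.5 CPM with Ctrl, which overlapped. Bid had log2 fold changes of 0.17 ± 0.108 in BV- and -0.10 ± 0.118 in BV+ cells (edgeR adjusted p = 0.270 and 0.553), and 0.06 and -0.21 with offsets (edgeR adjusted p = 0.671 and 0.136). Bcl2l11 (ENSMUSG00000027381) encodes BIM, an activator of the effectors that binds the anti-apoptotic proteins broadly. It measured 44.6 to 50.3 CPM in the BV- libraries and 44.2 to 51 CPM in the BV+ libraries. Its groups overlapped in both populations, and its log2 fold changes were -0.04 ± 0.115 and -0.03 ± 0.126 (edgeR adjusted p = 0.805 and 0.900). With offsets they were 0.14 and 0.04 (edgeR adjusted p = 0.362 and 0.789).

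**Figure D2:**
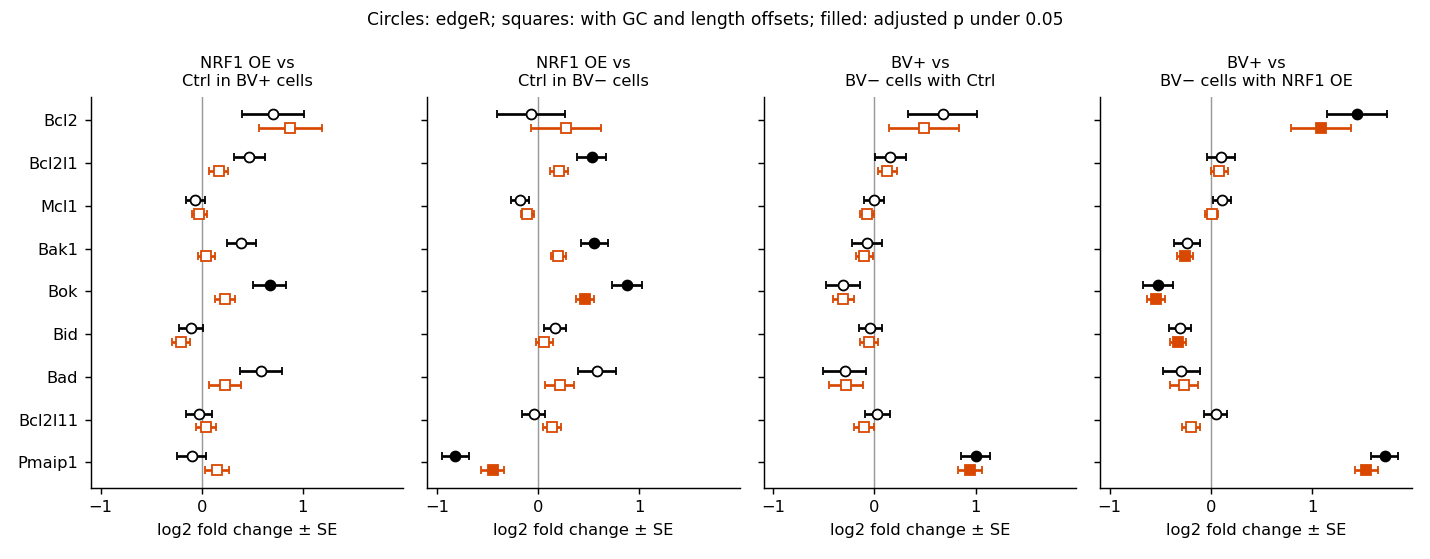
Log2 fold change ± SE (horizontal axes) of the 9 genes in 4 comparisons by edgeR, without (circles) and with (squares) offsets for GC content and length; filled symbols passed an adjusted p under 0.05. Bok in BV- cells was filled in both fits (0.88 and 0.46), whereas Bcl2l1 and Bak1 there were filled in the first only.

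The members that differed with NRF1 OE lay at the ends of the family's GC content. Transcript GC content was 61% for Bok, 57.1% for Bak1 and for Bad, and 55.9% for Bcl2l1, against 51.3% for Bid, 48.7% for Mcl1, 48% for Bcl2l11, 46.3% for Bcl2 and 42.1% for Pmaip1. Genes within 2 percentage points of Bok had a median log2 fold change of 0.42 in BV- cells and 0.41 in BV+ cells. Bok lay above 94.1% of those 875 genes in BV- cells and above 74.5% in BV+ cells. For Bak1 the neighbours' median was 0.37 in BV- cells and Bak1 lay above 77.6% of them, and Bcl2l1 lay above 77.5% of its own. Pmaip1 lay above 14% of its 2397 neighbours in BV- cells, whose median was -0.43. In BV+ cells Bcl2 stood furthest from its neighbours, above 94.6% of 3394 genes with a median of -0.15. With the offsets, 2 of 9 genes passed in BV- cells (Bok and Pmaip1, beside 8.4% of all genes) and 0 of 9 in BV+ cells (beside 13.4%). That 0 is from edgeR's quasi-likelihood test; without offsets 5 of the 9 had an unadjusted p under 0.05 in BV+ cells and DESeq2 called 1. The part of the GC trend in these differences was not tested beyond the offsets.

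**Figure D3:**
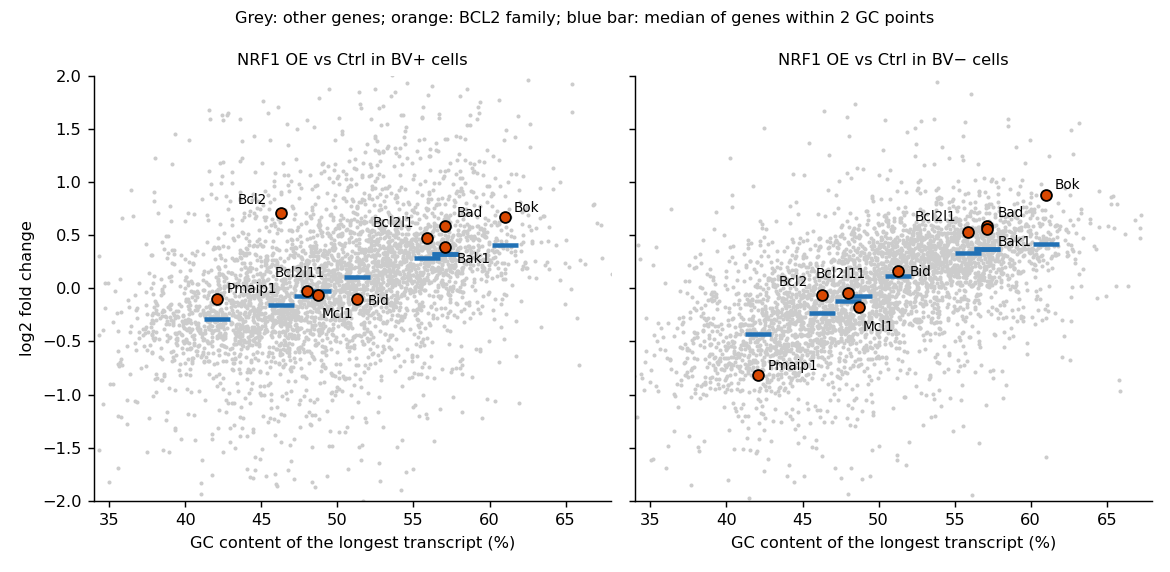
Log2 fold change with NRF1 OE (vertical axis) against GC content of the longest transcript (horizontal axis, %) in BV+ (left) and BV- cells (right) for the 9 genes (orange) and a random 4000 of the genes tested (grey, of which 49 and 29 lie beyond the axes). Blue bars are medians of genes within 2 percentage points and climb from -0.43 near Pmaip1 to 0.42 near Bok in BV- cells.

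The calls with NRF1 OE rested on few libraries. All 4 calls in BV- cells were lost when the fit left out BV- NRF1 OE replicate 3 or any 1 of the 4 Ctrl libraries, where the edgeR adjusted p lay between 0.0595 and 0.311. In these fits and the others with 1 library left out, the log2 fold change stayed between 0.74 and 0.98 for Bok, 0.41 and 0.64 for Bak1, 0.39 and 0.65 for Bcl2l1, and -0.91 and -0.73 for Pmaip1. A fit of the 5 BV- libraries alone called 0 of 15840 genes, and the 4 members had edgeR adjusted p from 0.0806 to 0.0836 there. DESeq2 on the 9 libraries called 5 of 9 genes in BV- cells, beside 24.6% of all genes. In BV+ cells the Bok call was lost without BV+ NRF1 OE replicate 1 (log2 fold change 0.54, edgeR adjusted p = 0.309), without BV+ Ctrl replicate 1 (0.65, 0.181) or 2 (0.70, 0.247), without BV- Ctrl replicate 1 (0.67, 0.0620) and without BV- NRF1 OE replicate 3 (0.65, 0.0661). A fit of the 4 BV+ libraries alone called Bcl2l1, Bak1 and Bok, beside 26.8% of all genes.

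BV+ and BV- cells differed most in Pmaip1. With Ctrl, Pmaip1 was 2-fold higher in BV+ cells, at 48 and 54 CPM against 23.8 and 27.1 CPM. The log2 fold change was 1.00 ± 0.145 (SE, edgeR adjusted p = 0.00667), and 0.94 with offsets (edgeR adjusted p = 0.00107). Of the 9 genes it was the 1 that passed, beside 1.12% of all genes tested (1.1% higher and 0.0237% lower in BV+ cells). It was also the 1 called with offsets (beside 1.78%), by DESeq2 (1.81%) and in a fit of the 4 Ctrl libraries alone (5.52%), and the 1 of 9 with an unadjusted p under 0.05 (7.77%) or past the study's threshold (5.74%). The call was lost without BV+ Ctrl replicate 2 (0.91, edgeR adjusted p = 0.0990), BV- Ctrl replicate 1 (0.91, 0.154) or BV- Ctrl replicate 2 (1.07, 0.0666). Bcl2 (0.68 ± 0.343), Bcl2l1 (0.16 ± 0.154), Bok (-0.31 ± 0.165) and Bad (-0.30 ± 0.213) also had groups that did not overlap, but did not pass (edgeR adjusted p = 0.715, 0.955, 0.742 and 0.894). Groups without overlap were thus seen for 5 of 9 genes, beside 48% of all genes (22.6% higher and 25.4% lower). The other 4 genes had log2 fold changes between -0.07 and 0.03.

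With NRF1 OE, 3 of 9 genes differed between the populations, beside 13.8% of all genes (9.9% higher and 3.85% lower in BV+ cells). Pmaip1 was 3.29-fold higher in BV+ cells, at 48.2 and 47 CPM against 12.4 to 15.5 CPM, a log2 fold change of 1.72 ± 0.133 (SE, edgeR adjusted p = 1e-05). This call held with each library left out in turn, at 1.66 to 1.79, and the edgeR adjusted p was at most 0.000239. Bcl2 was 2.73-fold higher, with a log2 fold change of 1.45 ± 0.296 (edgeR adjusted p = 0.00759), which without BV+ NRF1 OE replicate 1 was 1.15 and did not pass (edgeR adjusted p = 0.109). Bok was lower in BV+ cells by -0.52 ± 0.147 (edgeR adjusted p = 0.0371), and this call held in 1 of the 9 fits that each left out a library, with values of -0.65 to -0.37 and edgeR adjusted p of 0.0133 to 0.213. An unadjusted p under 0.05 was reached by 4 of 9 genes, the 3 named and Bid, beside 28.2% of all genes, and the study's threshold by Bcl2 and Pmaip1, beside 14.7%. Groups did not overlap for 5 of 9 genes, beside 39.9% of all genes. Bcl2, Mcl1 and Pmaip1 were the higher ones (20.3% of all genes) and Bok and Bid the lower ones (19.5%). DESeq2 called 3 of 9, beside 13.7%, and a fit of the 5 NRF1 OE libraries alone 2 of 9, beside 7.8%. With offsets 5 of 9 passed, beside 30.6% of all genes: Pmaip1 (1.54), Bcl2 (1.09), Bok (-0.54), Bid (-0.32) and Bak1 (-0.26). The summed mesenchyme and fibroblast markers given above also separated BV+ from BV- libraries. Among them Twist1 did not, at 1.96 to 3.55 CPM in BV+ and 1.54 to 2.17 CPM in BV- cells with NRF1 OE. The part of these markers in the Pmaip1 difference was not tested. Both population comparisons share their libraries with the NRF1 OE comparisons.

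The interaction term tested whether the NRF1 OE effect differed between the populations. The log2 difference of effects for Pmaip1, BV+ minus BV-, was 0.72 ± 0.197 (SE), with an unadjusted p of 0.00353 and an adjusted p of 0.571 by edgeR's quasi-likelihood test. With offsets it was 0.60 (edgeR adjusted p = 0.271). For Bcl2 it was 0.77 ± 0.457 (edgeR adjusted p = 0.981), and 0.60 with offsets (edgeR adjusted p = 0.705), and for the other 7 genes it lay between -0.27 and 0.12. By edgeR 0% of all genes passed, 1 of the 9 (Pmaip1) had an unadjusted p under 0.05, beside 5.51% of all genes, and the same gene passed the study's threshold, beside 4.48%. DESeq2 called 0 of the 9 and 0.172% of all genes. A difference between populations was therefore not detected for any of the 9 after adjustment.

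Summed in FPKM over the members of each role, Bak1 and Bok together were higher with NRF1 OE in both populations. The sum of Bak1 and Bok was 33.8 and 37.6 FPKM in BV- cells with Ctrl and 48.2, 64.2 and 53.1 FPKM with NRF1 OE. The BV+ sums were 33.2 and 32.7 FPKM with Ctrl and 47.4 and 41.7 FPKM with NRF1 OE. The effector sum of each NRF1 OE library was thus above that of each Ctrl library. The BH3-only sum was 40.7 and 43.6 FPKM in BV- cells with Ctrl and 40.6, 43.2 and 39.9 FPKM with NRF1 OE, which overlapped. The BV+ BH3-only sums were 51 and 51.7 FPKM with Ctrl and lower, at 47.5 and 49.1 FPKM, with NRF1 OE. The anti-apoptotic sum was 93.6 and 95.2 FPKM in BV- cells with Ctrl and lower, at 85.7, 85.6 and 84.9 FPKM, with NRF1 OE. In BV+ cells the anti-apoptotic sums overlapped, at 95.4 and 98.2 FPKM with Ctrl against 91.3 and 96.7 FPKM. Mcl1 made up 85.5% to 91.9% of the anti-apoptotic sum. No test compared the roles with each other. Over the 9 genes, the ratio of the anti-apoptotic to the pro-apoptotic sum was 1.26 and 1.17 in BV- cells with Ctrl and 0.965, 0.797 and 0.913 with NRF1 OE. The BV+ ratios were 1.13 and 1.16 with Ctrl and 0.962 and 1.07 with NRF1 OE. The ratio was lower with NRF1 OE in both populations, without overlap. Groups without overlap were common, seen in CPM for 57% of single genes in BV- cells and 70.1% in BV+ cells. The role sums leave out the effector Bax, which is not among the 9 and was more abundant than any of them, at 99.1 to 181 FPKM. With Bax added, a choice made after the values were seen, the ratio was 0.498 and 0.483 in BV- cells with Ctrl and 0.381, 0.297 and 0.330 with NRF1 OE. For BV+ cells it was then 0.521 and 0.531 with Ctrl and 0.419 and 0.460 with NRF1 OE. The level of the ratio thus depends on the genes summed, and the groups were apart either way. Adding Bax is not a separate check, since its change also shrank or turned with the offsets. Its log2 fold change was 0.32 in BV+ and 0.52 in BV- cells (edgeR adjusted p = 0.119 and 0.0317). With GC and length offsets it was -0.14 and 0.09 (edgeR adjusted p = 0.318 and 0.524). An exact permutation test over libraries cannot give a two-sided p below 0.2 with 3 against 2 libraries or 0.333 with 2 against 2. FPKM carry the same GC trend as the counts, and its part in these sums was not tested.

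NOXA, the product of Pmaip1, binds mainly MCL1, and the ratio of the Pmaip1 level to the Mcl1 level in FPKM set the populations apart. It was 0.207 and 0.227 in BV+ cells with Ctrl and 0.222 and 0.202 with NRF1 OE. In BV- cells it was 0.102 and 0.114 with Ctrl and 0.0721, 0.0613 and 0.0738 with NRF1 OE. Pmaip1 made up 18.4% to 24% of the FPKM of the 6 pro-apoptotic members in BV+ cells and 4.18% to 12.3% in BV- cells. Among 10986 genes with a mean of at least 5 CPM, those whose log2 CPM followed Pmaip1 most closely over the 9 libraries were Rhoq (Pearson's r = 0.991), Cadm1 (r = 0.990) and Trim44 (r = 0.985), a description of 9 libraries that fall into 4 groups.

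**Figure D4:**
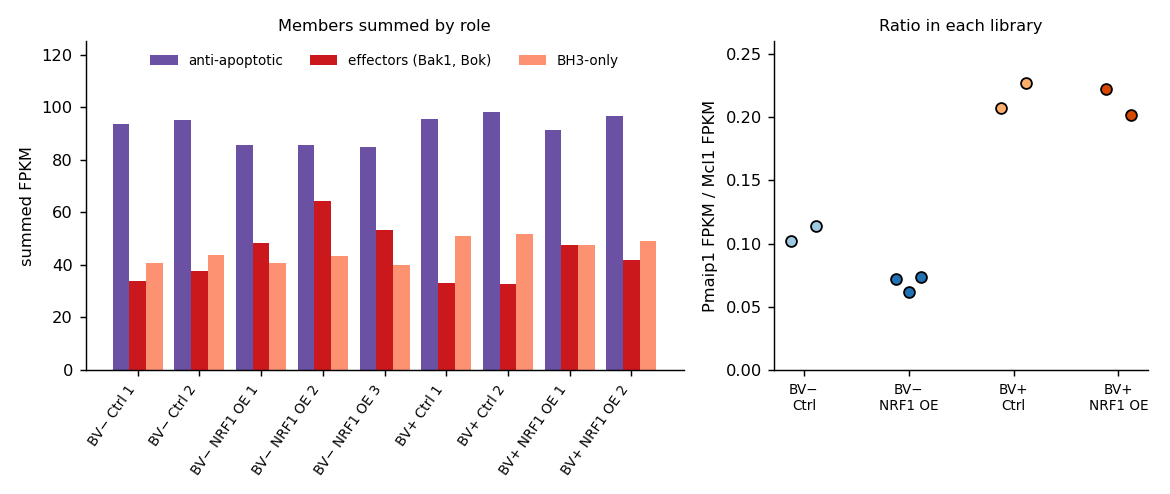
Left, summed FPKM of the anti-apoptotic genes, the effectors and the BH3-only genes in each library; right, the ratio of Pmaip1 to Mcl1 FPKM in each library by group. The effector sum was 41.7 to 64.2 in NRF1 OE and 32.7 to 37.6 in Ctrl libraries, and the ratio was 0.202 to 0.227 in BV+ and 0.0613 to 0.114 in BV- libraries.

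Of 16 other BCL2 family genes, 11 passed the filter, and 2 of these rose in BV- cells, beside 10.2% of all genes. Bax, the third effector and a p53 target like Pmaip1 and Bbc3, rose in BV- cells from 177 and 182 CPM with Ctrl to 219, 288 and 267 CPM with NRF1 OE. Its log2 fold change was 0.52 ± 0.119 (SE, edgeR adjusted p = 0.0317), and 0.09 with offsets (edgeR adjusted p = 0.524). Bbc3, which encodes the BH3-only protein PUMA, rose there by 0.49 ± 0.133 (edgeR adjusted p = 0.0377), and had 0.10 with offsets (edgeR adjusted p = 0.677). In BV+ cells Bmf, a BH3-only gene, was the 1 of 11 that rose, beside 6.24% of all genes, from 53.5 and 53.7 CPM to 82.7 and 71.7 CPM. Its log2 fold change was 0.53 ± 0.136 (edgeR adjusted p = 0.0411), and 0.33 with offsets (edgeR adjusted p = 0.0434). The median log2 fold change of the 11 genes was 0.21 in BV+ and 0.20 in BV- cells, and 0.02 and 0.09 with offsets. Between BV+ and BV- cells with Ctrl, 0 of the 11 passed by edgeR, beside 1.12% of all genes.

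Downstream of the mitochondria, 10 of 10 apoptosome and caspase genes were tested. Casp6, an executioner caspase, rose in BV+ cells from 12.3 and 13 CPM with Ctrl to 24.3 and 20.2 CPM with NRF1 OE, a log2 fold change of 0.82 ± 0.148 (SE, edgeR adjusted p = 0.0160), and 0.87 with offsets. It was the 1 of the 10 that passed there, beside 8.02% of all genes. The mesenchyme and fibroblast sum and the neuroectoderm sum given above for BV+ cells differed in the same direction, and the naive pluripotency sum in the other. In BV- cells 1 of the 10 passed, beside 17.2%. This gene, Apaf1, the scaffold of the apoptosome, fell by 0.43 on the log2 scale (edgeR adjusted p = 0.0463), and had -0.07 with offsets (edgeR adjusted p = 0.601). Cycs, which encodes cytochrome c and is a classical NRF1 target, measured 18 to 18.8 CPM with NRF1 OE and 19.1 to 21.8 CPM with Ctrl in BV+ cells, and 20.1 to 25.9 CPM against 19.3 to 21.7 CPM in BV- cells. Neither passed the edgeR test (log2 fold change -0.15 with adjusted p = 0.506, and 0.17 with adjusted p = 0.403). With offsets Cycs in BV- cells had 0.60 and passed (edgeR adjusted p = 0.0191).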

How the data were processed

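Total RNA of sorted cells was sequenced as poly(A) libraries. The authors trimmed the reads with Cutadapt, used HISAT2 2.0.1 for mapping to GRCm39 and HTSeq 0.6.1 for counting per gene, and deposited raw read counts for 56691 genes in each of 9 tables. The FPKM values deposited beside them were calculated by the authors from the same counts and serve here to compare levels between genes. The strand setting of the counting is not given in the sources used here.

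Counts were tested in R 4.3.3 with edgeR 4.0.16 (filterByExpr, TMM factors, quasi-likelihood F test, two-sided) in 1 fit of the 9 libraries with a term per group, and p-values were adjusted by Benjamini-Hochberg over 16903 of the 33142 genes with a count. A call is an adjusted p under 0.05. CPM use TMM library sizes, and log2 CPM a prior count of 2. The common biological coefficient of variation was 0.129, and the quasi-likelihood fit had 11.4 residual degrees of freedom with the prior included. GC content and length of the longest transcript came from GENCODE on GRCm38, with a match by identifier for 98.6% of the genes tested, and the trend of each library over both was fitted with mgcv 1.9.3 and used as offsets. Other settings were DESeq2 1.42.0, other scaling factors, other filters, a fit of the compared groups alone, the replicate number as a block, and leaving out each library in turn. The procedures were also run on simulated counts, with a spread set below that of the data. Where a GC trend was added, it was the same in every NRF1 OE library. This run therefore does not show how the offsets act on these libraries. Libraries of a group differed by more than counting noise (chi-square per degree of freedom of 2.91 to 32.2), so none was merged as a repeated deposit; this does not show that they are separate cultures.

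The family members and the other gene lists were chosen with earlier results of these data known. Named were all members, Nrf1 and Cycs, and, in each list, up to 3 genes with the largest rise and up to 3 with the largest fall among called genes with a mean of at least 1 CPM and groups that did not overlap. ChIP-seq data were not analysed here. Figures were drawn with matplotlib 3.10.9.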

Additional observations from a re-analysis of the deposited data

How the results depend on the processing

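Over all genes, 1355 were called with NRF1 OE in BV+ cells and 2910 in BV- cells, against 4371 and 0 with only the groups compared, 2230 and 1400 with offsets, and 2126 and 4166 with DESeq2. Between the populations, 190 were called with Ctrl and 2325 with NRF1 OE, against 890 and 1260, 296 and 5097, and 306 and 2319. Counts of called members depended on the fit more than on scaling or filtering. With only the groups compared in the fit, 3 members were called with NRF1 OE in BV+ cells and 0 in BV- cells, in place of 1 and 4. GC and length offsets gave 0 and 2, and 5 in place of 3 between BV+ and BV- cells with NRF1 OE. Leaving out each library in turn gave 0 to 4 called members for NRF1 OE in BV+ cells, 0 to 5 for NRF1 OE in BV- cells, 0 to 1 between the populations with Ctrl and 1 to 3 with NRF1 OE. A group left with 1 library is assumed there to vary like the others. For the difference of effects, 0 members were called by edgeR, at any setting run, or by DESeq2.

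Same-numbered libraries of different groups had correlations of their deviations between -0.295 and 0.243, with 2 of 12 over 0.1. Both of those, 0.204 and 0.243, were between BV- NRF1 OE and BV- Ctrl libraries. In a group of 2 libraries the deviations mirror each other, so the 12 values are not separate checks. They cannot decide whether the numbers pair the libraries. With the replicate block, 0 members were called with NRF1 OE in BV+ cells, 0 in BV- cells, 1 between the populations with Ctrl and 1 with NRF1 OE. Over all genes that fit called 3, 0, 121 and 1064. The offsets with the replicate block gave 0, 0, 1 and 3 members, and 1131, 10, 184 and 3224 of all genes.

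Apart from leaving out libraries, 26 member values changed sign, 22 calls were lost, 8 were gained and 385 values kept both sign and call. None of the values that changed sign passed the test before or after. Bcl2l11 with NRF1 OE in BV+ cells became 0.013 with at least 10 counts on average, 0.044 with offsets and 0.045 with offsets and block, and in BV- cells it became 0.14 and 0.18 with the last pair. Between the populations it became -0.11 (offsets) and -0.11 (with block) at Ctrl, and -0.20 and -0.24 at NRF1 OE. Pmaip1 with NRF1 OE in BV+ cells became 0.15 in both. Bcl2 with NRF1 OE in BV- cells became 0.016 with the block, 0.27 with offsets and 0.40 with both. Mcl1 between the populations at Ctrl became 0.0061 with upper-quartile factors, 0.022 with library size alone, 0.014 with no filter and 0.0063 with only the groups compared. The difference of effects became -0.045 for Bad and -0.030 for Bcl2l11 with upper-quartile factors, and -0.014 and -0.0039 with no filter. It became -0.067 for Bad with the block, -0.041 for Bad with offsets and block, -0.092 for Bcl2l11 with offsets and -0.13 with offsets and block. The cause was not tested.

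With each library left out in turn, Bcl2l11 ranged from -0.13 to 0.077 with NRF1 OE in BV+ cells, -0.14 to 0.045 in BV- cells, -0.080 to 0.12 between the populations at Ctrl, -0.061 to 0.15 at NRF1 OE and -0.090 to 0.16 for the difference of effects. Bcl2 ranged from -0.28 to 0.097 with NRF1 OE in BV- cells. Bcl2l1 ranged from -0.017 to 0.25 between the populations at NRF1 OE and from -0.18 to 0.059 for the difference. Mcl1 ranged from -0.022 to 0.026 and Bid from -0.12 to 0.025 between the populations at Ctrl, and Bad from -0.24 to 0.21 for the difference. The spread of a member rests largely on information edgeR shares across genes, since most groups hold 2 libraries, and Bcl2, at 15 to 81 counts per library, is measured least precisely.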

Other observations

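Of 9 factors released from mitochondria and inhibitors of apoptosis, 2 fell with NRF1 OE in BV- cells and 0 passed the edgeR test in BV+ cells. Over all genes 17.2% passed in BV- cells (6.98% lower) and 8.02% in BV+ cells. Xiap, whose protein blocks caspases directly, measured 55.1, 26.6 and 45.3 CPM in BV- cells with NRF1 OE against 87.7 and 70.7 CPM with Ctrl. It fell by 0.90 on the log2 scale (edgeR adjusted p = 0.0349), and had -0.22 with GC and length offsets (edgeR adjusted p = 0.141). Birc2, which encodes the ubiquitin ligase cIAP1, measured 41.7, 23.4 and 31.1 CPM against 54 and 45.5 CPM. It fell by 0.63 (edgeR adjusted p = 0.0458), and had -0.29 with offsets (edgeR adjusted p = 0.116). The median log2 fold change of the 9 genes in BV- cells was -0.23, where that of all genes was 0.01, and -0.05 with offsets.

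In the death receptor pathway, 6 of 7 genes were tested, and 1 passed in each population, beside the same shares of all genes. Tnfrsf1a, the TNF receptor, measured 26.8 and 18.2 CPM in BV+ cells with NRF1 OE against 8.78 and 8.13 CPM with Ctrl. It rose by a log2 fold change of 1.41 ± 0.254 (SE, edgeR adjusted p = 0.0159), and by 1.09 with offsets (edgeR adjusted p = 0.00477). The summed mesenchyme and fibroblast markers were also higher in the BV+ NRF1 OE libraries, at 685 and 444 CPM against 124 and 129 CPM with Ctrl. So were the summed neuroectoderm markers, at 161 and 111 CPM against 65.9 and 72.7 CPM, while single markers differed as given above. Their part in this rise was not tested. Ripk1, a kinase of the TNF receptor complex whose exons overlap those of Serpinb6a on the opposite strand, fell by 0.62 in BV- cells (edgeR adjusted p = 0.0317), and had -0.23 with offsets (edgeR adjusted p = 0.316). Of 12 outer membrane channel genes and regulators of BCL2 proteins, Dynll1, a dynein light chain that tethers BIM, was the 1 that rose in BV- cells, by 0.34 ± 0.100 (SE, edgeR adjusted p = 0.0435), and 0.43 with offsets (edgeR adjusted p = 0.0204). Over all genes 10.2% rose there. With offsets 2 of the 12 passed, Dynll1 and the channel gene Vdac3 (0.82, edgeR adjusted p = 0.0191), beside 8.4% of all genes.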
